A study of Homo sapiens with 6 samples.

Results

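The annexins are a family of proteins that bind membranes when calcium rises, and their transcripts were followed here in Ls174t, a human cell line from a mucinous colon tumour. The 10 genes described are ANXA1, ANXA2, ANXA3, ANXA4, ANXA5, ANXA6, ANXA7, ANXA9, ANXA11 and ANXA13, found by Entrez identifier among 17563 gene rows with values. They were chosen by family name and from measured levels, with results of the comparison below already known, so their differences between the groups are given as a description and support nothing by themselves. All 10 were above 0 in all 6 libraries, whereas the other 3 annexin genes with a row were not. ANXA6 and ANXA13 are the lowest of the 10, with means over the 6 libraries of 0.383 and 0.493 FPKM (fragments scaled to gene length and to the mapped total of the library), and just outside stand ANXA8 at 0.0283 and ANXA10 at 0.00833 FPKM. ANXA8L1 was listed at 0 in every library.

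The study set 3 dishes of a stable Ls174t line overexpressing RNF186, a RING-type ubiquitin ligase of the intestinal epithelium, against 3 dishes of the matching line that carries the vector alone. Neither line was treated, and all dishes were grown for 48 h in DMEM, to which fetal bovine serum, penicillin and streptomycin had been added. Each group was 1 line divided into 3 dishes, so the spread between samples is that between dishes and not between independently made lines. The topic of the series is RNF186, the receptor EPHB2 and TNF signalling in colorectal epithelial cells.

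Annexins share a conserved core that docks on negatively charged phospholipids through calcium, and each carries its own N-terminal tail. The tail decides which partners are bound, among them small calcium-binding S100 proteins. In epithelia the family is known for work on membrane traffic, on the link between membrane and actin, on the repair of torn plasma membrane and on the dampening of inflammation.

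RNF186 itself (Entrez 54546) averaged 505 ± 65.2 FPKM in RNF186 cells and 0.67 ± 0.0529 FPKM in vector cells (SD, n = 3 each). All 12 markers of colon epithelium averaged at least 1 FPKM, KRT8 being the highest, with summed levels of 5443 to 5944 FPKM in RNF186 libraries and 6603 to 7199 FPKM in vector libraries. That sum is mostly keratins, and the list did not move as one. By the limma fit described below, called at an adjusted p under 0.05, KRT8, KRT18, KRT19, VIL1 and CDH17 fell. EPCAM, CDH1, CDX2 and CEACAM5 rose, and KRT20, CDX1 and MUC2 did not pass. That is 5 of 12 lower and 4 higher, against 18.9% lower and 19.9% higher over all genes tested. CEACAM5 changed most, at 128 FPKM on average in RNF186 cells and 51.0 FPKM in vector cells (log2 change 1.31, adjusted p = 1.5e-08). The part of these shifts in the annexin values was not tested, nor was that of the other marker lists. None of the 6 fibroblast and 5 endothelial markers with values averaged 1 FPKM. Of 7 leukocyte markers 3 did, PTPRC, CD14 and LYZ, and the leukocyte list summed to 22.3 to 23.7 FPKM in RNF186 libraries and 19.2 to 20.3 FPKM in vector libraries. The gap in that sum is mostly LYZ, which averaged 19.0 FPKM in RNF186 cells and 15.6 FPKM in vector cells. CD14 fell (log2 change -0.37, adjusted p = 0.0103) and PTPRC did not pass (0.02, adjusted p = 0.874). Retinal markers were checked because the extraction protocol in the labels mentions retinas. Their 6 rows summed to 2.61 to 3.09 FPKM in RNF186 libraries and 3.04 to 3.24 FPKM in vector libraries, with PDE6A averaging 1.49 and CRX 1.00 FPKM and the other 4 below 1 FPKM.

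Taken over the family, annexin RNA was lower in RNF186 cells. The 10 genes summed to 995.6, 995.8 and 998 FPKM in the RNF186 libraries and to 1252, 1201 and 1161 FPKM in the vector libraries. The 3 RNF186 libraries lay close together, and the lowest vector library stood above all of them. The ratio of the means was 0.827. As a share of all FPKM in the library, which differed between groups as well, the family held 0.255% ± 0.00326 in RNF186 cells and 0.298% ± 0.00622 in vector cells (SD, n = 3 each). ANXA2 alone accounted for 59.5% of the net difference in the sum and ANXA1 for 34.6%. The net is what remained of the falls after rises, such as 18.9 FPKM for ANXA5, were set against them. In RNA from whole cultures, fewer cells that express a gene and less of its RNA per cell cannot be told apart.

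**Figure D1:**
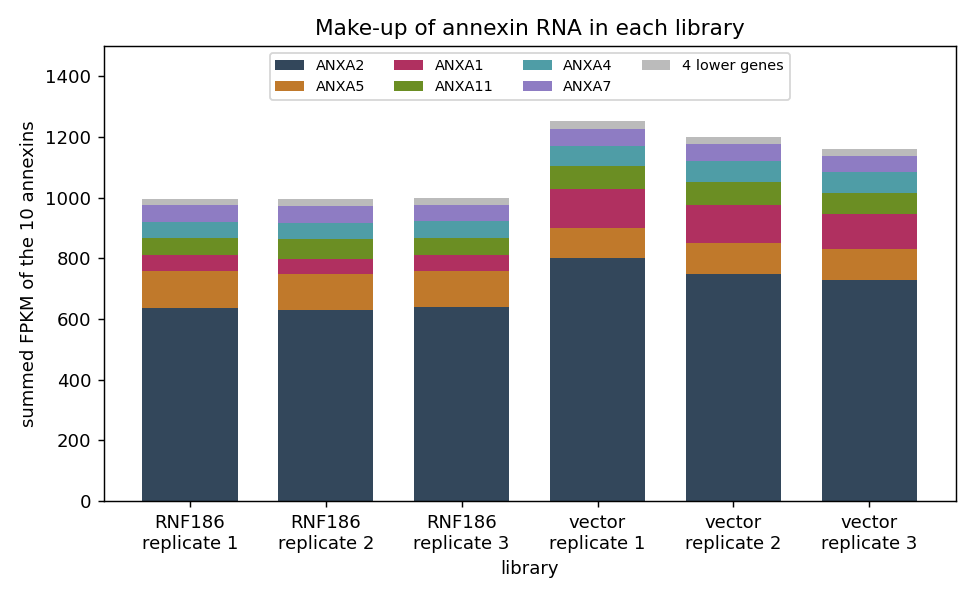
Summed FPKM of the 10 annexins in each library, stacked by gene, with the 3 RNF186 libraries left of the 3 vector libraries. ANXA2 fills 62.4 to 64.1% of every bar, and the ANXA1 segment is 4.92 to 5.20% of the bar in RNF186 cells and 10.0 to 10.4% in vector cells.

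FPKM is scaled to gene length, so levels of different genes can be set side by side, but only roughly. The counting program and annotation are not given, and the level of ANXA2 is uncertain for the reason given with that gene below. By mean level the order in RNF186 cells was ANXA2, ANXA5, ANXA11, ANXA7, ANXA4, ANXA1, ANXA3, ANXA9, ANXA13 and ANXA6. In vector cells it was ANXA2, ANXA1, ANXA5, ANXA11, ANXA4, ANXA7, ANXA3, ANXA9, ANXA13 and ANXA6. ANXA1 held place 6 in RNF186 cells and place 2 in vector cells. Neighbours whose libraries overlapped were ANXA7 with ANXA4 and ANXA13 with ANXA6 in RNF186 cells, and ANXA11 with ANXA4 and ANXA13 with ANXA6 in vector cells. Among all gene rows with values ANXA2 ranked 68 by mean level, ANXA5 532 and ANXA1 729.

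**Figure D2:**
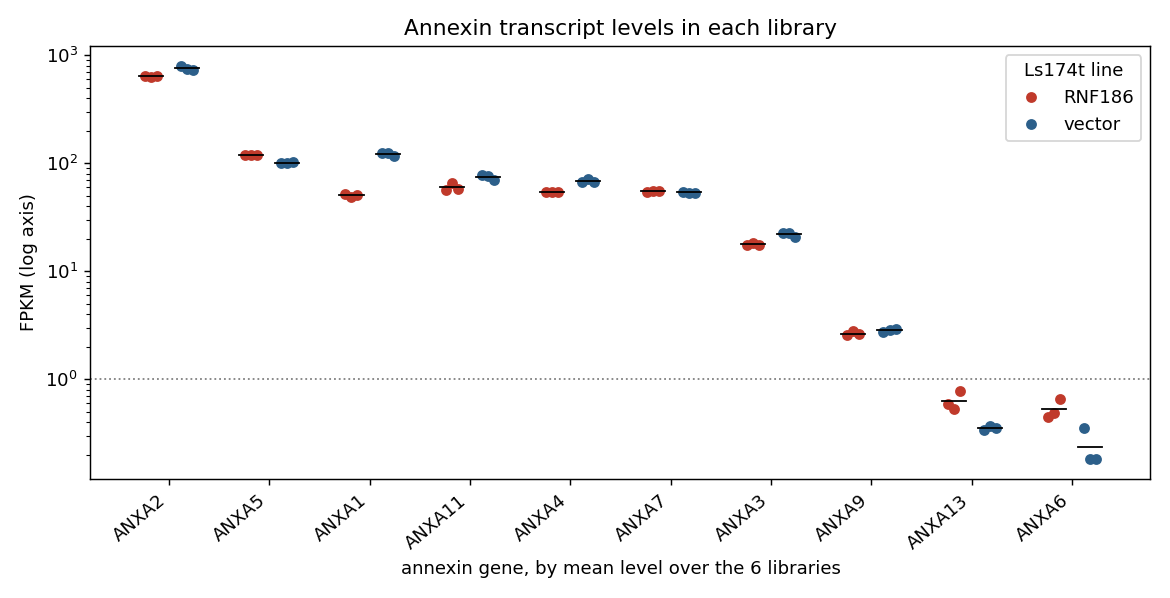
FPKM of each annexin in each library on a log axis, RNF186 left of vector within each gene, with the group mean as a black bar and 1 FPKM as a dotted line. ANXA1 shows the widest gap between the groups among the genes above 1 FPKM, and ANXA13 and ANXA6 lie below the line in all libraries.

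Of the 10 genes, 8 averaged at least 1 FPKM over the 6 libraries and entered a fit over all 11632 genes that did so (limma on log2(FPKM + 1), called at an adjusted p under 0.05). In it 5 of the 8 were called lower in RNF186 cells, 1 was called higher and 2 were not called. Over all genes tested 38.8% were called, 18.9% lower and 19.9% higher. RNF186 and vector libraries were fully apart for 6 of the 8 annexins, against 49.5% of all genes tested. The median change of the 8 was -0.27 on the log2(FPKM + 1) scale, against -0.005 over all genes tested. Nothing is read from these counts, because the genes were chosen with them in view. Of all calls 51.3% were higher in RNF186 cells, and 63.1% were after rescaling each library to TPM, with the median change of all genes then at 0.043.

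ANXA1 (Entrez 301), an anti-inflammatory protein induced by glucocorticoids and a ligand of formyl peptide receptors, showed the widest change of the 8. It stood at 51.8, 49 and 50.4 FPKM in RNF186 cells, against 125, 125 and 117 FPKM in vector cells. Every RNF186 library was below every vector library, and the RNF186 mean was 0.412 of the vector mean. The change was -1.26 on the log2(FPKM + 1) scale (SE 0.047, 95% interval -1.37 to -1.16), and 20 of the 11632 genes tested had a larger fall. Of the formyl peptide receptors, FPR1 was listed at 0 in all 6 libraries and FPR3 reached at most 0.07 FPKM in an RNF186 library and 0.05 FPKM in a vector library. FPR2, another of these receptors, had no row with values, so nothing can be said of its level. PLA2G4A, the cytosolic phospholipase A2 that annexin A1 is known to inhibit, fell as well. It averaged 6.49 ± 0.381 FPKM in RNF186 cells and 8.66 ± 0.486 FPKM in vector cells (SD, n = 3 each, log2 change -0.37, SE 0.068, adjusted p = 0.00236).

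ANXA2 (Entrez 302), which links membranes to actin and joins S100A10 in a complex at the cell surface, was the most abundant annexin. It measured 638, 629.95 and 640.3 FPKM in RNF186 cells, against 801, 750.0 and 728 FPKM in vector cells. The RNF186 libraries lay close together below all vector libraries, which spread more widely. The change was -0.25 on the log2(FPKM + 1) scale (SE 0.047, 95% interval -0.36 to -0.15), and it was -0.13 after quantile normalization. ANXA2 has near-identical processed pseudogenes, and the sources used here do not say how reads matching both were counted, so its level is uncertain. ANXA2R, named as a receptor of annexin A2, was low, at 0.77, 0.81 and 0.57 FPKM in RNF186 cells and 0.83, 1.01 and 0.91 FPKM in vector cells. All 3 RNF186 values lay below the vector values, in a range too low to enter the fit.

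ANXA5 (Entrez 308) binds exposed phosphatidylserine, forms ordered arrays on membranes and is the usual probe for dying cells. It measured 120.1, 119.8 and 119.7 FPKM in RNF186 cells, against 100.6, 99.5 and 103 FPKM in vector cells. It was the only one of the 8 called higher, and its tight groups were apart. The ratio of the means was 1.19 and the change 0.25 on the log2(FPKM + 1) scale (SE 0.040, 95% interval 0.16 to 0.33). ANXA5 made up 12.03% ± 0.0370 of the annexin sum in RNF186 cells and 8.39% ± 0.414 in vector cells (SD, n = 3 each). This share moved further than ANXA5 itself, since the annexin sum in RNF186 cells was 0.827 of that in vector cells.

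ANXA1, ANXA2 and ANXA5 are the 3 highest annexins in vector cells and differed in both directions, so the 250 bases before the annotated start of each are shown, from RefSeq on GRCh38.p14. The stretch for ANXA1 is chr9:73151615-73151864 on the plus strand, for ANXA2 chr15:60397987-60398236 on the minus strand and for ANXA5 chr4:121696981-121697230 on the minus strand. Letters run 5′ to 3′ on the gene's strand. Capitals mark matches on either strand to any of 4 motifs. The TATA box was searched as TATAAA and the CCAAT box as those letters, so that ATTGG marks a CCAAT box on the opposite strand. The GC box was searched as GGGCGG. The AP-1 motif was searched as TGANTCA, which reads the same on both strands.
ANXA1: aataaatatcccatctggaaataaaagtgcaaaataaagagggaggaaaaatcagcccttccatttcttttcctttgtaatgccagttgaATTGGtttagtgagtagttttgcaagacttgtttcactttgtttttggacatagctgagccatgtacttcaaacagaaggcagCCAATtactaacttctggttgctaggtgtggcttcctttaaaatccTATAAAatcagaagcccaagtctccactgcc
ANXA2: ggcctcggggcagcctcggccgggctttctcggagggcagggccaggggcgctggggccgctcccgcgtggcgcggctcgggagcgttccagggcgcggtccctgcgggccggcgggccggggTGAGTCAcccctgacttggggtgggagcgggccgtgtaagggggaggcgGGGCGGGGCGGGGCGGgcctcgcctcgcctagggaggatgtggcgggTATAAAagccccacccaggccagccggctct
ANXA5: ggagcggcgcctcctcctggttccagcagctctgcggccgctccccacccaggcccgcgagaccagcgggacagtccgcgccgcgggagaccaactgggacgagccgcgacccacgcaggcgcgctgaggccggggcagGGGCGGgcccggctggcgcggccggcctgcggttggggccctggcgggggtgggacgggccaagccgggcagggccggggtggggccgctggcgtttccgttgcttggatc

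The stretch before ANXA1 has a GC content of 38.4% and no CG dinucleotide, where 6.06% of 35116 annotated start sites have none and the median is 11. It holds 1 TATAAA, 31 to 26 bases before the start, and 2 CCAAT boxes. The stretch before ANXA2 has a GC content of 78.0% and 28 CG dinucleotides. Its TATAAA lies at the same distance, 31 to 26 bases before the start, and there are 3 overlapping GC boxes 78 to 63 bases before it and 1 AP-1 motif 127 to 121 bases before it. The stretch before ANXA5 has a GC content of 78.8% and 31 CG dinucleotides, and a single GC box is its only match. On either strand TATAAA is found in 10.7% of all such stretches, CCAAT in 32.0%, GGGCGG in 42.6% and TGANTCA in 6.57%. The NF-kB motif, found in 9.96% of stretches, matched in none of these 3. It matched before ANXA7, before the inner of the annotated starts of ANXA6 and before 1 of the ANXA4 starts. Of the 10 genes 9 had promoter entries, with 13 starts in all. A match is a string of letters and not a measured site, and the authors' data do not show which start was used.

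Among the other annexins of middle abundance, ANXA4 (Entrez 307), known from secretory epithelia where it gathers on membranes and dampens chloride currents, was lower in RNF186 cells. It measured 54.0, 54.4 and 53.8 FPKM in RNF186 cells, against 67.3, 71.0 and 66.7 FPKM in vector cells. The groups did not overlap, and the change was -0.33 on the log2(FPKM + 1) scale (SE 0.044, 95% interval -0.43 to -0.23).

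ANXA11 (Entrez 311), which has a long tail, binds PDCD6 and S100A6 and tethers RNA granules to lysosomes, was also lower. It measured 56.7, 65.0 and 57.5 FPKM in RNF186 cells, against 77.0, 76.2 and 69.3 FPKM in vector cells. RNF186 replicate 2 was the highest of its group and vector replicate 3 the lowest of its own, yet the groups did not overlap. The change was -0.31 (SE 0.063, 95% interval -0.45 to -0.17), and it was -0.37 without RNF186 replicate 2.

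ANXA7 (Entrez 310), or synexin, is the other long-tailed annexin and a partner of the calcium-binding protein sorcin. It measured 54.2, 55.8 and 54.9 FPKM in RNF186 cells, against 54.3, 53.5 and 53.2 FPKM in vector cells. The groups overlapped, and the change was 0.03 (SE 0.041, 95% interval -0.06 to 0.13). Its sign turned with the correction for transcript length and GC content (-0.022).

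ANXA3 (Entrez 306), best known from neutrophil granules, measured 17.4, 18.1 and 17.6 FPKM in RNF186 cells, against 22.4, 22.6 and 20.6 FPKM in vector cells. All RNF186 libraries were below all vector libraries, with a change of -0.29 (SE 0.054, 95% interval -0.41 to -0.17). ANXA9 (Entrez 8416), an annexin whose core lacks the usual calcium sites, was low in both lines. It measured 2.54, 2.79 and 2.59 FPKM in RNF186 cells, against 2.74, 2.85 and 2.91 FPKM in vector cells. These ranges overlapped, and the change was -0.08 (SE 0.071, 95% interval -0.23 to 0.08).

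ANXA13 and ANXA6 stayed below 1 FPKM in every library and were left out of the fit. ANXA13 (Entrez 312), the annexin of intestinal and renal epithelium, was 0.59, 0.53 and 0.78 FPKM in RNF186 cells and 0.34, 0.37 and 0.35 FPKM in vector cells. ANXA6 (Entrez 309), which has a duplicated core and recruits the RAS inhibitor RASA1 to membranes, was 0.45, 0.49 and 0.65 FPKM in RNF186 cells and 0.35, 0.18 and 0.18 FPKM in vector cells. For both genes all RNF186 values lay above all vector values. The coefficient of variation within the vector group was 41.5% for ANXA6, so the size of its difference is uncertain. The difference in means of log2(FPKM + 1) was 0.27 for ANXA13 and 0.31 for ANXA6. These are close to that of ANXA5 although the levels are far lower, and the scale understates changes of low genes. The ratios of the means were 1.79 for ANXA13 and 2.24 for ANXA6, against 1.19 for ANXA5.

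The coefficient of variation over the 3 dishes ran from 0.163% for ANXA5 to 7.63% for ANXA11 in RNF186 cells among the 8 genes above the limit, and from 1.02% for ANXA7 to 5.73% for ANXA11 in vector cells. Below the limit it was 20.6% for ANXA13 and 20.0% for ANXA6 in RNF186 cells, and 4.32% for ANXA13 and 41.5% for ANXA6 in vector cells. Vector replicate 3 held the lowest vector value for 6 of the 10 genes and tied with vector replicate 2 for that of ANXA6. Vector replicate 1 held the highest vector value for 5. RNF186 replicate 2 held the highest RNF186 value for 5 and the lowest for 3, and RNF186 replicate 1 the lowest for 5.

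Genes of proteins that bind annexins were tested in the same fit. Of 19 listed partners 12 were tested, 7 fell, 2 rose and 3 did not pass, and their median change was -0.28, against -0.005 over all genes tested. That is 75.0% called, against 38.8% over all genes, for a list put together with results of these data known. S100A10 (Entrez 6281), which joins ANXA2 in its surface complex, measured 46.5, 42.5 and 44.8 FPKM in RNF186 cells, against 96.3, 86.2 and 85.5 FPKM in vector cells. The groups did not overlap and the RNF186 mean was 0.499 of the vector mean (log2 change -0.98, SE 0.058, adjusted p = 1.32e-06). The 95% interval of its log2 change ran from -1.11 to -0.86, and that of ANXA2 from -0.36 to -0.15, a difference between the 2 genes that was not itself tested. AHNAK, a giant scaffold protein held by that complex, averaged 53.6 ± 1.16 FPKM in RNF186 cells and 82.5 ± 2.98 FPKM in vector cells (SD, n = 3 each, log2 change -0.61, adjusted p = 6.41e-06).

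The other S100 partners differed among themselves. S100A6, which binds ANXA2 and ANXA11, averaged 570.2 ± 16.7 FPKM in RNF186 cells and 828 ± 9.18 FPKM in vector cells (SD, n = 3 each, log2 change -0.54, adjusted p = 1.03e-05), and the change was -0.35 with the length and GC correction. S100A11, the partner of ANXA1, stood at 427, 347 and 399 FPKM in RNF186 cells and 392, 385 and 376 FPKM in vector cells. It did not pass (log2 change 0.02, 95% interval -0.13 to 0.17, adjusted p = 0.841), with RNF186 replicate 2 below all other libraries. S100A4 fell (log2 change -0.21, adjusted p = 0.0136), a call lost under 5 of 19 alternatives, among them the length and GC correction (-0.085, adjusted p = 0.187) and the fits that left out vector replicate 2 (0.0674) or RNF186 replicate 3 (0.0604).

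PDCD6, the calcium sensor that binds ANXA7 and ANXA11, rose, at 103 ± 2.88 FPKM in RNF186 cells and 90.8 ± 4.27 FPKM in vector cells (SD, n = 3 each, log2 change 0.17, adjusted p = 0.0182). The call was lost without RNF186 replicate 1 (adjusted p = 0.0745) or vector replicate 2 (0.0897). SRI, which encodes sorcin, did not pass (log2 change 0.10, 95% interval -0.05 to 0.25, adjusted p = 0.25), but was called higher with array weights (0.18, adjusted p = 0.0325), and the change was 0.03 without vector replicate 2. RASA1 rose (log2 change 0.20, adjusted p = 0.0337), and lost its call under 8 of 19 alternatives, the replicate block (0.0619) among them. The cytoskeletal actins ACTB (log2 change -0.35, adjusted p = 0.000333) and ACTG1 (-0.35, adjusted p = 0.00789) fell, and the change of ACTB was -0.15 after quantile normalization. They are near-identical in sequence, so how the authors' counting split them is uncertain.

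**Figure D3:**
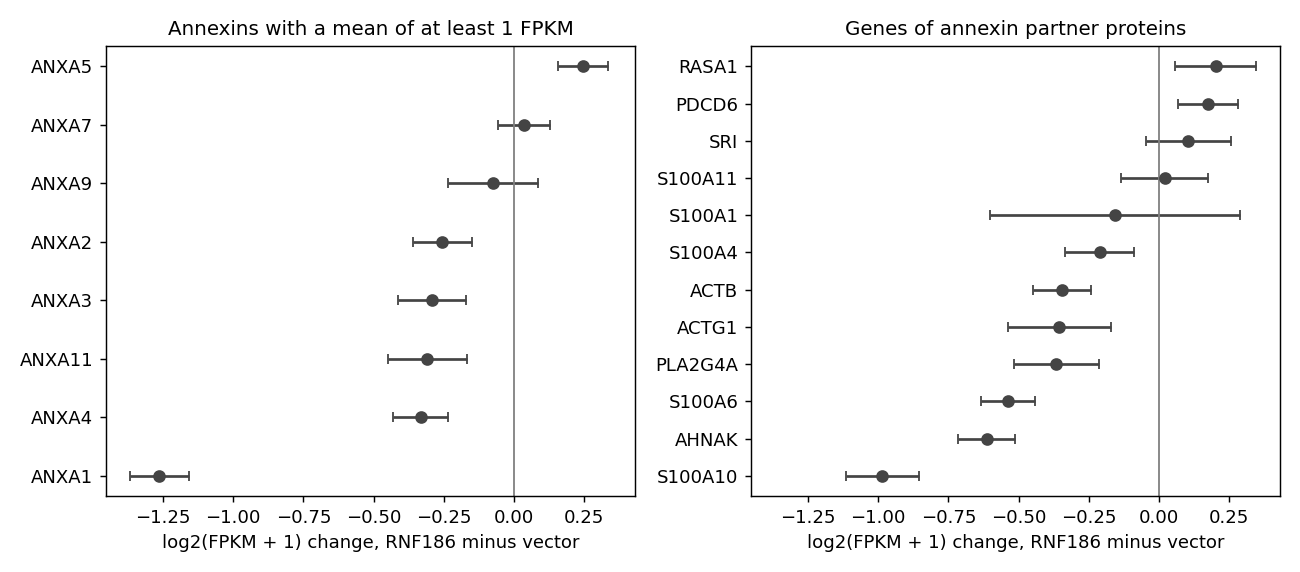
Change on the log2(FPKM + 1) scale, RNF186 minus vector, with 95% intervals from the fit over all genes, for the 8 annexins (left) and the 12 partner genes (right) that averaged at least 1 FPKM. ANXA1 at -1.26 and S100A10 at -0.98 lie furthest to the left in their panels.

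Annexins are known to act with other proteins in the resealing of torn plasma membrane. Of 25 genes on a membrane repair list 19 were tested, 6 were called higher, 5 fell and 8 did not pass, and the median change was 0.07. That is 57.9% called, against 38.8% over all genes. This list and those that follow were, like the partner list, put together with results of these data known. DYSF averaged below 1 FPKM in vector cells and entered the fit only through the RNF186 libraries. Without it 5 of 18 rose, 55.6% were called and the median was 0.05. DYSF, a ferlin and thus a large membrane protein that binds calcium, stood at 1.56, 1.84 and 1.45 FPKM in RNF186 cells and 0.38, 0.41 and 0.37 FPKM in vector cells, and its p-value is not given for that reason. MYOF, another ferlin, fell, at 26.7, 25.8 and 26.2 FPKM in RNF186 cells and 36.3, 35.5 and 35.4 FPKM in vector cells (log2 change -0.43, SE 0.045, adjusted p = 6.38e-05). CHMP4B (0.23, adjusted p = 0.00321) and TSG101 (0.20, adjusted p = 0.00567), parts of the membrane-cutting ESCRT machinery, rose. S100A10 and AHNAK, listed here too, are 2 of the 5 falls, and PDCD6, also a listed partner, is 1 of the 6 rises. S100A11, also on both lists, was the most abundant gene of the list.

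Copines and extended synaptotagmins also bind membranes through calcium. Of 12 of their genes 6 were tested and 50.0% called, against 38.8% over all genes, and the median change was -0.03. CPNE1, the most abundant, fell (log2 change -0.35, adjusted p = 0.00096), ESYT2 fell (-0.25, adjusted p = 0.00407) and ESYT3 rose (0.27, adjusted p = 0.0456, a call lost under 11 of 18 alternatives). Of 22 scramblases, flippases and their subunits, which move lipids between the leaflets of a membrane, some of them phosphatidylserine, the ligand of ANXA5, 16 were tested, 3 rose, 1 fell and 12 did not pass. That is 25.0% called, against 38.8% over all genes, with the median at 0.06. ATP10D and ATP10B, known as flippases of glucosylceramide and not of phosphatidylserine, were among the rises. ATP10D rose most, at 4.38 ± 0.411 FPKM in RNF186 cells and 2.42 ± 0.24 FPKM in vector cells (SD, n = 3 each, log2 change 0.65, adjusted p = 0.000313), and ATP10B rose by 0.26 (adjusted p = 0.0086). ATP11A (0.15, adjusted p = 0.0433) and TMEM30B (-0.19, adjusted p = 0.05) lost their calls under 11 and 13 of 19 alternatives. TMEM30A, the most abundant of the list, did not pass (0.06, adjusted p = 0.409).

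ANXA2 and S100A10 are known as a cell surface site where plasminogen is activated. Of 12 genes on that list 8 were tested, 1 rose, 2 fell and 5 did not pass, and the median was 0.02. That is 37.5% called, close to the 38.8% over all genes. S100A10, already counted on the partner and membrane repair lists, is 1 of the 2 falls. PLAU, the urokinase that cleaves plasminogen, rose, at 2.95, 3.28 and 3.07 FPKM in RNF186 cells and 2.07, 1.99 and 1.93 FPKM in vector cells (log2 change 0.45, SE 0.073, adjusted p = 0.00111). ENO1, a glycolytic enzyme also found at the surface and the most abundant gene of the list, fell (-0.20, adjusted p = 0.0317), and the call was lost with quantile normalization, where the change was -0.07 (adjusted p = 0.179), and under 7 other alternatives. PLAT, which encodes the tissue activator that binds the ANXA2 complex, stayed at or below 0.18 FPKM in RNF186 libraries and 0.13 FPKM in vector libraries.

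Over the 6 libraries the genes most like ANXA1 in log2(FPKM + 1) were SPTAN1, a spectrin of the membrane skeleton (Pearson r = 0.9992), EZR, which encodes the membrane-actin linker ezrin (0.9989), and MYOF (0.9986). Those most like ANXA5 were CDK2, a cell cycle kinase (0.9999), IRAK2, a kinase of interleukin-1 receptor signalling (0.9995), and TNF (0.9990), which averaged 0.187 FPKM in vector cells and was among the genes compared only through its RNF186 libraries. These values mostly follow the gap between 2 groups of 3 dishes, and 77 genes reached 0.99 with ANXA1 and 218 with ANXA5. SPTAN1 was 0.772 and EZR 0.793 of the vector mean in RNF186 cells, while CDK2 was 1.23, IRAK2 1.93 and TNF 13.0 times its vector mean. TNF stood at 2.32, 2.52 and 2.45 FPKM in RNF186 cells and 0.18, 0.08 and 0.3 FPKM in vector cells, so the size of its ratio is uncertain.

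**Figure D4:**
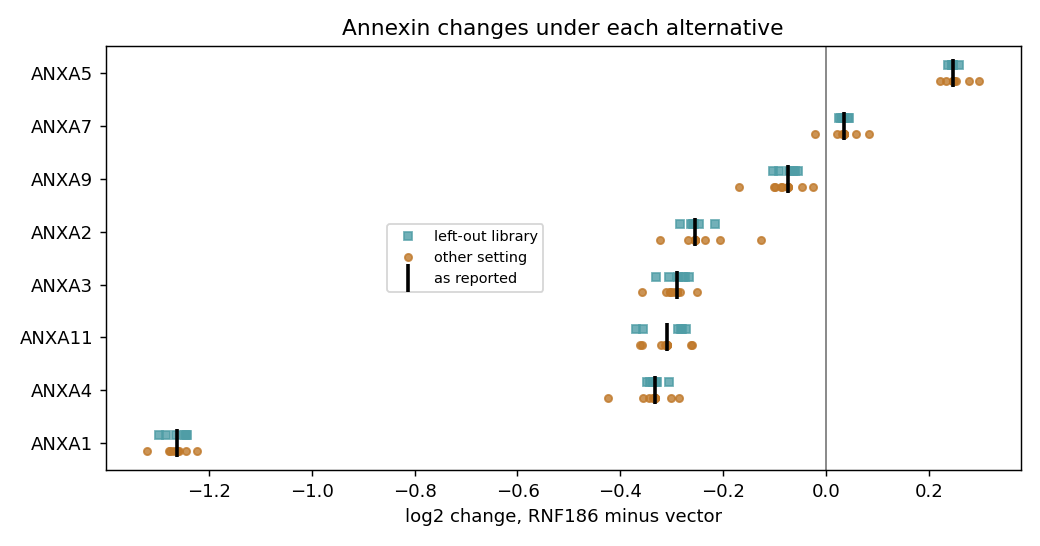
Log2 change of the 8 annexins above 1 FPKM, RNF186 minus vector, as reported (black bars), with each library left out (squares) and under each other setting (circles). The 6 called genes stay on their own side of 0, the circle of ANXA2 nearest to 0 is quantile normalization at -0.13, and ANXA7 lies on both sides.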

How the data were processed

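RNA libraries of 6 Ls174t cultures were made with a TruSeq kit (Illumina) per the labels' protocols. The authors deposited FPKM to 2 decimals. Bowtie 0.12.2 and the mouse builds mm8 and mm9 are named, per the submitters' processing notes, against human gene identifiers, and the counting program and annotation are not given in the sources used here. No gene coordinates of the table are therefore printed. Of 19485 rows 1 named no gene and 1921 had no values. Symbols came from RefSeq (GRCh38.p14) for 17524 rows.

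Depth is unknown, since FPKM holds no counts. Pairs of values from 0.05 to 0.2 FPKM of a gene in different libraries numbered 11270. Of these 23.2% differed by at most 0.15 in log2 and 15.6% by up to as much again. Rounding to 2 decimals is coarse in that range, so this cannot show whether values lie in steps of single reads. No depth was derived from it. No interval for counting error is given.

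Values were analysed as log2(FPKM + 1), which understates changes of low genes, for genes averaging at least 1 FPKM, with limma 3.58.1 in R 4.3.3 (no covariates, mean-variance trend, two-sided, Benjamini-Hochberg over all tested genes). The fit was tested on simulated data. All members, S100A10, S100A11, S100A6, PDCD6, SRI, up to 6 called genes and the highest gene of each list were named by rule; S100A4, RASA1, the single markers, FPR1, FPR3, PLAT and the chromosomal neighbours were named after their values were seen. Members and lists were chosen with earlier results of these data known. Alternatives were other pseudocounts, filters, scalings, variance models, array weights, a replicate block, left-out libraries, a stricter threshold and, added after seeing the data, a correction for transcript length and GC content (GENCODE 29).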

Additional observations from a re-analysis of the deposited data

How the results depend on the processing

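Under 19 alternatives the 6 annexins called in either direction kept their direction and their call. The ranges were -1.32 to -1.22 for ANXA1, -0.32 to -0.13 for ANXA2, -0.36 to -0.25 for ANXA3, -0.43 to -0.29 for ANXA4, -0.37 to -0.26 for ANXA11 and 0.22 to 0.30 for ANXA5. ANXA7 turned to -0.022 with the length and GC correction. Without a filter on low values 3 annexins were called higher, because ANXA6 and ANXA13 then entered. At an adjusted p under 0.01 the calls over all genes were 1465 higher and 1121 lower, and 6 genes of the partner and related lists were higher, the threshold being stricter. With 1 library left out, all genes called lower ran from 1435 (without RNF186 replicate 3) to 2945 (without RNF186 replicate 2). All genes called higher ran from 1720 (without vector replicate 2) to 2724 (without RNF186 replicate 2), against 2314 in the main fit. Of 56 genes tested on those lists, the main fit called 12 higher and 14 lower, 46.4% against 38.8% over all genes. DYSF, which entered the fit only through the RNF186 libraries, is among the higher ones. It is also among them at the stricter threshold and in each fit with 1 library left out. With 1 library left out the higher ones ran from 6 to 13. They were 7 without RNF186 replicate 1 or 3 and 6 without vector replicate 2. S100A11 ran from -0.046 (without RNF186 replicate 1) to 0.10 with 1 library left out and reached 0.16 with the length and GC correction. ANXA9, not called, ran from -0.17 to -0.026. TMEM30A turned to -0.036 with the length and GC correction. For the turned signs the cause was not tested. Dishes of equal replicate number were no more alike than others. Correlations of their deviations were -0.27, -0.07 and 0.26, and those between unequal numbers ran from -0.375 to 0.389. With 3 dishes per group this cannot settle whether dishes were paired. With the replicate block 2050 genes were called higher and 1987 lower, with 1 annexin higher and 5 lower. With unknown depth, values under 1 FPKM limit what can be said of ANXA6 and ANXA13.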

Other observations

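For each annexin the nearest protein-coding gene with values on either side, at any distance, was taken from RefSeq after the annexin values were seen. Genes without values were passed over, so a neighbour here need not be the adjacent gene. Of these 20 neighbours 13 were tested, 4 rose, none fell and 9 did not pass. That is 30.8% called, against 38.8% over all genes tested, so nothing is read from the count. ALDH1A1, a retinaldehyde dehydrogenase beside ANXA1, rose where ANXA1 was lower. It measured 27.3, 26.3 and 25.7 FPKM in RNF186 cells, against 18.7, 16.3 and 16.7 FPKM in vector cells (log2 change 0.59, SE 0.061, limma, adjusted p = 6.24e-05). RORB, on the other side of ANXA1, reached at most 0.02 FPKM. Both neighbours of ANXA6 rose, TNIP1, a brake on NF-kB signalling, by 0.40 (limma, adjusted p = 0.000378) and CCDC69 by 0.25 (limma, adjusted p = 0.01). MINDY1, a deubiquitinase beside ANXA9, rose by 0.40 (limma, adjusted p = 0.00587). The tested neighbours of ANXA2, BNIP2 (-0.07, limma, adjusted p = 0.41) and ICE2 (0.01, limma, adjusted p = 0.929), did not pass.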
